A study of Mus musculus with 12 samples.

Results

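The EGF family ligands and their ERBB receptors were examined in the RNA of sciatic DRG, the L4-L6 dorsal root ganglia that hold the cell bodies of sensory neurons of the sciatic nerve. The members were 10 genes, taken by name from the 44345 genes of the count table: the ligands Areg, Tgfa, Hbegf, Btc, Ereg and Nrg1, and the receptors Egfr, Erbb2, Erbb3 and Erbb4. Areg was chosen by its large rise after EE + SNA, so its values in each comparison that involves EE + SNA or SH Sham are a description and no test of it is given there. All 10 genes were found, and 9 had enough counts to be tested among 16238 genes. Ereg did not.

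The mice were C57BL/6 animals 5 to 8 weeks old. They lived for 10 days in standard housing (SH) or in environmental enrichment (EE), then had sham surgery or a sciatic nerve axotomy (SNA), with dissection of the ganglia 24 h after it. The 4 groups were SH Sham and SH SNA from standard housing and EE Sham and EE + SNA from enrichment, with 3 samples each, and each sample pooled the ganglia of 2 mice. The study describes the samples as biological replicates and EE Sham as an earlier data set, and the labels give no date or batch, so that in every comparison with EE Sham the data set cannot be told apart from housing or surgery.

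EGF family ligands are made as membrane proteins, and proteases of the ADAM family release them from the cell surface. AREG and TGFA bind EGFR, HBEGF and BTC bind EGFR and ERBB4, and the neuregulin NRG1 binds ERBB3 and ERBB4. ERBB2 binds no ligand of its own and is the preferred partner of the other receptors, while ERBB3 has very weak kinase activity and signals through its partner. The bound receptors pair and drive the RAS, ERK and PI3K pathways. In peripheral nerve, NRG1 on axons acts on ERBB2 and ERBB3 of Schwann cells and sets myelination, and EGFR ligands have been studied in injury and in pain.

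Areg lies on mouse chromosome 5 in a cluster of ligand genes. On GRCm38 it spans chr5:91139599-91148432 on the plus strand, 45952 bases from Ereg and 208828 bases from Btc, and Epgn, another EGFR ligand, lies 104383 bases away. The sequences upstream of Areg, which had the largest fold of the members, and of Tgfa, a ligand with a far smaller one, are shown here to compare the start regions of the EGFR ligands. Each is the 250 bases before the start of the gene on the plus strand, from RefSeq on GRCm38.p6, at chr5:91139349-91139598 for Areg and chr6:86194972-86195221 for Tgfa, and capitals mark a cAMP response element (CRE, TGACGTCA) and a TATA box (TATAAA).
Areg: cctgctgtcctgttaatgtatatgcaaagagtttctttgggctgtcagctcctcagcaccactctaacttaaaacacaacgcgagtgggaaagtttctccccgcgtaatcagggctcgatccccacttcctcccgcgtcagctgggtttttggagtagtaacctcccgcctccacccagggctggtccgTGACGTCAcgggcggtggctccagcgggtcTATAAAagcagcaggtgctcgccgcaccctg
Tgfa: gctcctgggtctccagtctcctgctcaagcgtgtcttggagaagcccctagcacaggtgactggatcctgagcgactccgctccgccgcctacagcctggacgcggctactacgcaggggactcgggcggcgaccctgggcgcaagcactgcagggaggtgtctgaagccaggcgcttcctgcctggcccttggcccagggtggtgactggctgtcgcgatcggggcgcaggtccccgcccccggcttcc

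The Areg sequence holds a whole CRE 61 bases before the start and a TATA box 31 bases before it. Both strands were searched in windows from 250 bases before to 50 bases after the start, which were found for 6 of the 10 members (Areg, Btc, Tgfa, Egfr, Erbb2 and Erbb4). Of these 6, Areg was the member with the CRE or the TATA box, and none had the AP-1 motif TGACTCA. Among all 32841 such mouse windows, 1.79% hold the CRE, 13.6% the TATA box and 5.2% the AP-1 motif. These matches describe letters in a window, and no binding was measured.

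Whole ganglia were sequenced, and the files hold from 11343579 to 22871460 reads counted on genes per sample. Values are given as CPM (counts scaled to the same library total) after TMM scaling, and as FPKM, which also divides by gene length. Neurons were well represented, with a mean of 1305 FPKM for Tubb3 (a neuronal tubulin) and 1027 FPKM for Calca (the CGRP precursor). Atf3, a transcription factor induced in axotomized neurons, was higher than in SH Sham by 2.12 on the log2 scale after SH SNA and by 2.02 after EE + SNA. Skin was nearly absent: Krt5 had 1 read over all samples, and the summed epidermis markers stayed within 3.52 to 5.01 CPM.

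The members spanned a wide range of levels. By the deposited FPKM, averaged over 12 samples, Nrg1 was highest at 22.4 ± 3.56 FPKM (SD, n = 12), and Erbb3 followed at 9.21 ± 0.780 FPKM. Tgfa (5.37 FPKM), Hbegf (4.38 FPKM) and Areg (3.65 FPKM) came next, then Erbb2 (2.67 FPKM) and Egfr (0.599 FPKM). Btc (0.289 FPKM) and Erbb4 (0.143 FPKM) were low, and Ereg had 1 read in SH SNA replicate 2 and 0 in the other 11 samples. Tgfa and Hbegf overlapped over the samples, as did Btc and Erbb4, and Areg spanned 0.925 to 10.4 FPKM and so overlapped all from Erbb3 to Erbb2.

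This order depends on the gene length that was used. The FPKM imply a length of 2114 bases for Nrg1, whereas its exons in GENCODE cover 10351 bases. They also imply shorter lengths than GENCODE for Hbegf (2386 against 4834 bases), Btc (2892 against 4520 bases) and Tgfa (4252 against 6490 bases). When CPM were divided by the GENCODE length instead, an alternative chosen after seeing the data, Erbb3 came first at 9.26 CPM per kilobase, ahead of Nrg1 at 4.58, Areg at 3.64, Tgfa at 3.53, Erbb2 at 2.69 and Hbegf at 2.17. For Areg and the receptors the 2 lengths were nearly equal. Among the receptors, Erbb3 held 69.2% to 76.0% of the receptor FPKM in each sample and Erbb2 18.5% to 23.7%, with Egfr at 3.83% to 6.20% and Erbb4 at 0.741% to 1.57%.

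**Figure D1:**
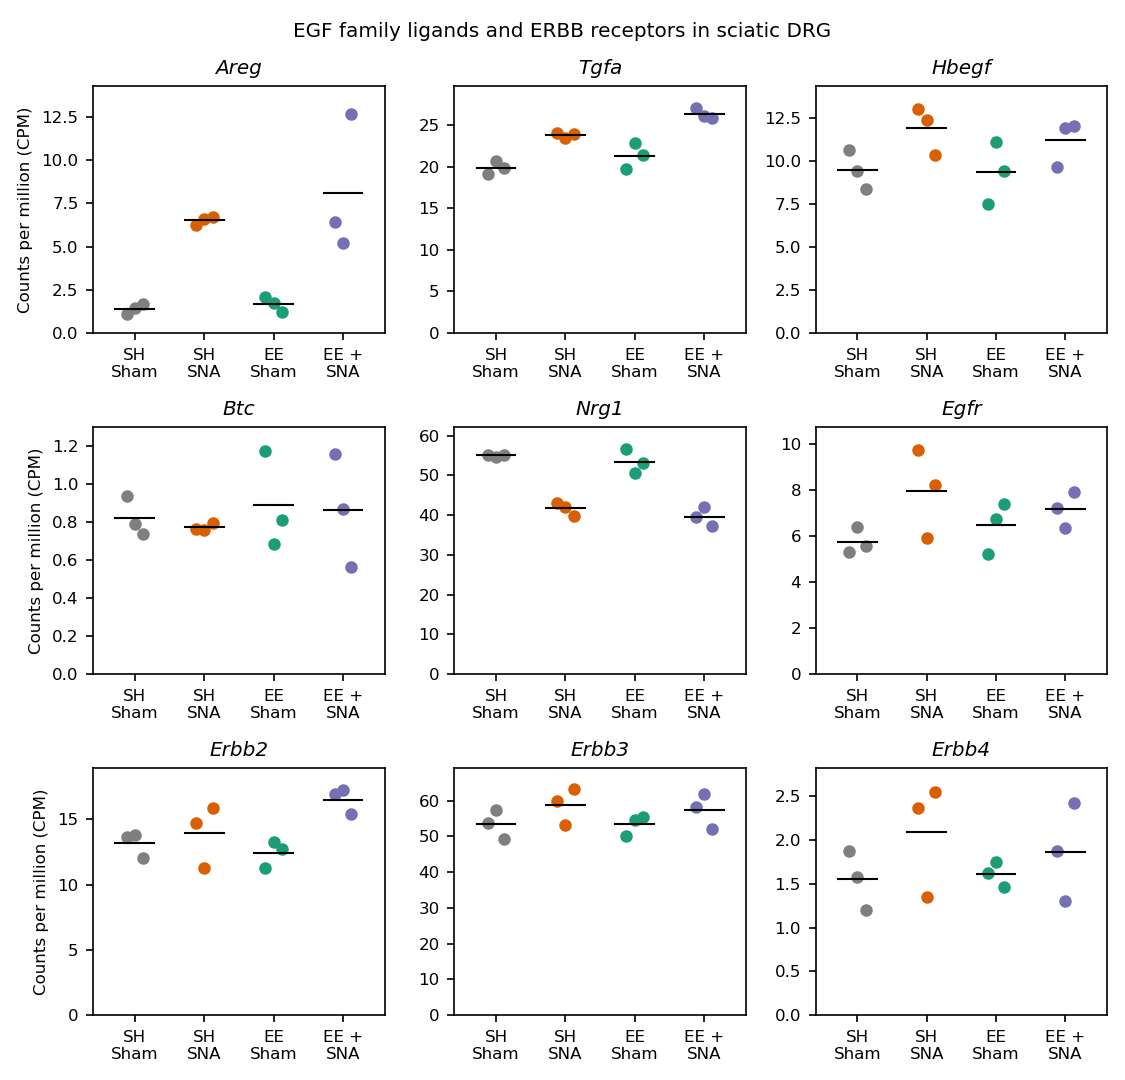
CPM (y axis from 0, with its own scale in each panel) of the 9 members with enough counts, by group. Each point is 1 sample of 2 pooled mice and each bar is the mean of 3 samples. Areg separates the SNA groups from the sham groups and EE + SNA replicate 3 stands above the rest at 12.7 CPM, Nrg1 is lower in the SNA groups, Tgfa is higher in them, and the receptor groups mostly overlap.

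Areg encodes amphiregulin, an EGFR ligand that many tissues induce after damage. Its levels were 1.11, 1.43 and 1.67 CPM in SH Sham and 2.08, 1.75 and 1.22 CPM in EE Sham. After axotomy they were 6.27, 6.59 and 6.69 CPM in SH SNA and 6.41, 5.18 and 12.7 CPM in EE + SNA. Every SNA sample was above every sham sample, the SH SNA samples lay close together, and EE + SNA replicate 3 stood far above the other 2 samples of its group. The counts behind these levels were 15 to 25 reads in the sham samples and 72 to 157 in the SNA samples.

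Against SH Sham, Areg was 4.64-fold higher in SH SNA (log2 fold change 2.22 ± 0.19, SE) and 5.63-fold higher in EE + SNA (2.49 ± 0.34). Against EE Sham, EE + SNA was 4.69-fold higher (2.23 ± 0.35). EE Sham differed from SH Sham by 0.26 ± 0.29 on the log2 scale, less than its SE. EE + SNA differed from SH SNA by 0.28 ± 0.28, and by -0.19 without EE + SNA replicate 3, so that the sign rested on that sample. These comparisons share control samples and describe a gene that was picked for its rise.

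Areg was chosen by its rise after EE + SNA, and the group that this rise was measured against is not stated. SH SNA and EE Sham were taken as the groups outside the choice. EE Sham may still have been its baseline, so the P below is not known to be independent of the choice. SH SNA and EE Sham differ in surgery, housing and data set, which cannot be told apart here. Areg was 3.88-fold higher in SH SNA (log2 fold change 1.96 ± 0.20, adjusted P = 0.000102 by edgeR's quasi-likelihood test over all genes), with all 3 SH SNA samples above all 3 EE Sham samples. By this test 6.82% of all genes passed the adjusted threshold of 0.05 in this comparison and 19.8% the unadjusted one. The adjusted P lay between 8.32e-14 and 0.00794 over 15 alternatives, and the log2 fold change between 1.43 and 2.12. An exact permutation test over these samples alone, two-sided, gave p = 0.1, the smallest p that 3 against 3 samples allow.

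Cell type markers moved with Areg in part. The 10 macrophage markers, led by C1qb and C1qa, summed to 80.4 to 85.0 CPM in SH Sham, 71.8 to 84.7 in EE Sham, 88.7 to 126 in SH SNA and 90.6 to 127 in EE + SNA. The 9 neutrophil markers, led by S100a9 and S100a8, summed to 75.8 to 203 CPM in SH Sham, 101 to 239 in EE Sham, 127 to 334 in SH SNA and 162 to 783 in EE + SNA. The 8 markers of fibroblasts and nerve sheath, led by Dcn and Slc2a1, ranged from 752 to 892 CPM over the sham samples and from 813 to 1191 over the SNA samples. The 5 red blood cell markers summed to 226 to 431 CPM in SH Sham, 269 to 700 in EE Sham, 457 to 1205 in SH SNA and 437 to 1333 in EE + SNA. Against SH Sham, 3 of these 5 rose past the adjusted threshold after SH SNA and 4 after EE + SNA. Of all genes, 11.2% and 12.5% passed it, in either direction. Relative to the group means over the 12 samples, Areg had r = 0.81 with the red blood cell sum, 0.686 with that of neutrophils, 0.386 with that of macrophages and 0.214 with that of fibroblasts and nerve sheath. Among the other lists, r was 0.531 with sensory neurons, 0.409 with lymphocytes and 0.331 with mast cells. It was negative with sympathetic neurons (-0.401) and satellite glia (-0.111). No marker of macrophages, neutrophils, fibroblasts and nerve sheath or red blood cells was at 0 over all samples.

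EE + SNA replicate 3, with the most Areg, also had the highest sums for neutrophils (783 CPM), macrophages (127 CPM), fibroblasts and nerve sheath (1191 CPM) and red blood cells (1333 CPM). Within SH SNA, the macrophage sums were 126, 88.7 and 109 CPM and the neutrophil sums 213, 127 and 334 CPM, while Areg stayed within 6.27 to 6.69 CPM. Without EE + SNA replicate 3, the log2 fold change of Areg was 2.02 against SH Sham and 1.76 against EE Sham. The part of these cells in the Areg values was not tested, and in whole ganglia a change in the number of cells of a type and a change in RNA per cell cannot be told apart.

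**Figure D2:**
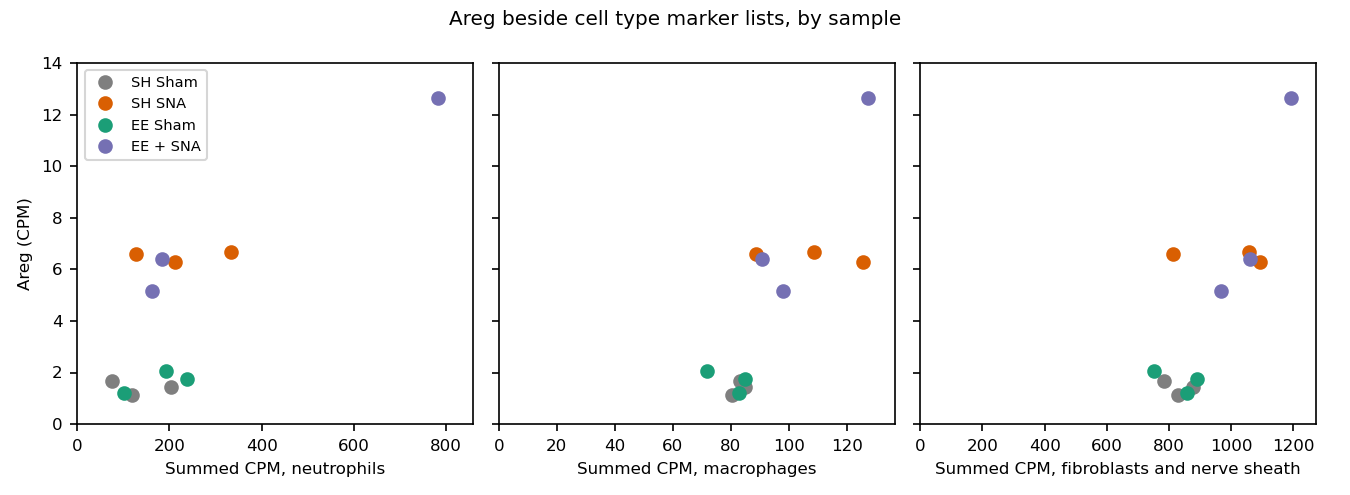
Areg in CPM (y axis) against the summed CPM of neutrophil, macrophage, and fibroblast and nerve sheath markers (x axes), with 1 point per sample and a colour per group. EE + SNA replicate 3 lies at the upper right of each panel, while the 3 SH SNA points spread along the x axes at nearly the same height, from 6.27 to 6.69 CPM.

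Tgfa encodes TGF-alpha, another EGFR ligand. Its levels were 19.1, 20.7 and 19.9 CPM in SH Sham, 24.1, 23.5 and 24.0 CPM in SH SNA, 19.8, 22.8 and 21.4 CPM in EE Sham, and 27.1, 26.2 and 25.9 CPM in EE + SNA. Both SNA groups lay above both sham groups in every sample, and each EE + SNA sample was above each SH SNA sample. The share of all genes that separate in this way was not counted. Against SH Sham, Tgfa rose after EE + SNA by 0.41 ± 0.08 on the log2 scale (adjusted P = 0.00524), a call that held in 15 of 15 alternatives. After SH SNA the log2 fold change was 0.26 ± 0.08 and passed the unadjusted threshold but not the adjusted one (adjusted P = 0.0593). Tgfa shares 118 exon bases with Gm43917 on the other strand, and the strand setting of the counting is not given in the sources used here.

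Nrg1, the axonal signal to Schwann cells, moved the other way. Its levels were 55.1, 54.7 and 55.2 CPM in SH Sham, 43.1, 42.0 and 39.9 CPM in SH SNA, 56.6, 50.6 and 53.1 CPM in EE Sham, and 39.6, 42.0 and 37.2 CPM in EE + SNA. No SNA sample reached the lowest sham sample. Nrg1 fell by 0.40 ± 0.06 on the log2 scale after SH SNA against SH Sham (adjusted P = 0.00137), and by 0.47 ± 0.07 after EE + SNA (adjusted P = 0.000654). Both calls held in 15 of 15 alternatives. It shares 482 exon bases with Gm26578 on the other strand.

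Sensory neuron markers moved with Nrg1 in part. Their sum was 9473 to 10373 CPM in SH Sham, 9172 to 9526 in EE Sham, 8847 to 9568 in SH SNA and 8979 to 9193 in EE + SNA, so that SH SNA overlapped SH Sham. Of the 10 markers, 3 fell after SH SNA and 4 after EE + SNA, against SH Sham, beside 11.2% and 12.5% of all genes called in either direction. Isl1, a transcription factor of sensory neurons, was at 102 to 117 CPM in SH Sham and 76.2 to 86.6 CPM in SH SNA, while Tubb3 and Calca had log2 fold changes of 0.03 and 0.10 after SH SNA (adjusted P = 0.812 and 0.445). Relative to the group means, Nrg1 had r = -0.0945 with the sensory neuron sum.

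Schwann cell markers were in part higher after SNA, where Nrg1 was lower. Over 7 of them, a set made after seeing the data, the sum was 4441 to 5217 CPM in SH Sham, 4063 to 5540 in EE Sham, 4862 to 6758 in SH SNA and 5805 to 7234 in EE + SNA, and no marker was at 0. The EE + SNA samples lay above all sham samples, as for Erbb2. Against SH Sham, 0 of the 7 markers passed the adjusted threshold by edgeR after SH SNA and 3 after EE + SNA, all higher. Of all genes, 11.2% and 12.5% passed it, in either direction. The median log2 fold change of the 7 against SH Sham was 0.273 after SH SNA and 0.269 after EE + SNA. Between EE + SNA and SH SNA it was 0.038, with 0 of the 7 past the adjusted threshold. For EE + SNA against EE Sham 0 of the 7 passed it, beside 4.83% of all genes, with a median of 0.305. Relative to the group means, Nrg1 had r = -0.80 with the sum of the 7 markers. The part of either cell type in the Nrg1 values was not tested.

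Hbegf encodes heparin-binding EGF-like growth factor. Its levels were 10.6, 9.40 and 8.36 CPM in SH Sham, 13.0, 12.3 and 10.3 CPM in SH SNA, 7.49, 11.1 and 9.42 CPM in EE Sham, and 9.61, 11.9 and 12.01 CPM in EE + SNA. The groups overlapped. Against SH Sham, Hbegf had a log2 fold change of 0.33 ± 0.13 in SH SNA, which passed the unadjusted threshold but not the adjusted one (adjusted P = 0.128), and of 0.25 ± 0.13 in EE + SNA (adjusted P = 0.251). Btc, betacellulin, was close to the limit of what could be measured, with 7 to 20 reads per sample and 0.564 to 1.17 CPM, and a difference between its groups was not detectable at this depth. Summed, the FPKM of the 5 ligands other than Nrg1 were 9.91 to 10.4 in SH Sham, 9.68 to 11.9 in EE Sham, 15.8 to 16.6 in SH SNA and 15.8 to 21.5 in EE + SNA, with Areg and the lengths above contributing to them.

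Among the receptors, Erbb3 and Erbb2 form the neuregulin receptor of Schwann cells. Erbb3 was at 49.1 to 57.5 CPM in SH Sham, 53.2 to 63.3 in SH SNA, 49.99 to 55.5 in EE Sham and 51.9 to 61.8 in EE + SNA, and its groups overlapped throughout. Its log2 fold change against SH Sham was 0.14 ± 0.08 after SH SNA (adjusted P = 0.305) and 0.11 ± 0.08 after EE + SNA (adjusted P = 0.446).

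Erbb2 was at 13.7, 13.8 and 12.03 CPM in SH Sham, 14.7, 11.2 and 15.8 CPM in SH SNA, 11.3, 13.3 and 12.8 CPM in EE Sham, and 16.9, 17.2 and 15.4 CPM in EE + SNA. The EE + SNA samples lay above all sham samples, while SH SNA spread across both. Against SH Sham the log2 fold change in EE + SNA was 0.33 ± 0.10, just past the threshold (adjusted P = 0.0495), and 3 of 15 alternatives kept the call (adjusted P from 0.0352 to 0.16). Blocking on the replicate number gave an adjusted P of 0.0685. Against SH Sham the SH SNA value was 0.08 ± 0.13 (adjusted P = 0.746).

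Egfr was at 5.28, 6.38 and 5.55 CPM in SH Sham, 9.71, 5.91 and 8.20 CPM in SH SNA, 5.23, 6.75 and 7.39 CPM in EE Sham, and 7.21, 6.35 and 7.90 CPM in EE + SNA. SH SNA replicate 2 was the low sample of its group. The log2 fold change of Egfr after SH SNA was 0.48 ± 0.17 against SH Sham, past the unadjusted threshold alone (adjusted P = 0.103), and 0.65 without that replicate (adjusted P = 0.0205). Erbb4, with 16 to 32 reads per sample and 1.20 to 2.55 CPM, overlapped between all groups, and its log2 fold change after SH SNA was 0.43 ± 0.29 against SH Sham (adjusted P = 0.39).

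SH SNA replicate 2 was the lowest of its group for all 4 receptors, at 5.91 CPM for Egfr, 11.2 for Erbb2, 53.2 for Erbb3 and 1.35 for Erbb4. It was also the lowest of its group for the Schwann cell sum (4862 CPM, against 5758 and 6758), the macrophage sum and the sum of fibroblasts and nerve sheath, and it had the highest sum of skeletal muscle markers of the 12 samples (981 CPM). Over the 12 samples, relative to the group means, Egfr had r = 0.92 with the sum of fibroblasts and nerve sheath, 0.815 with that of macrophages and 0.69 with that of Schwann cells. Erbb2 had r = 0.679 with fibroblasts and nerve sheath, 0.651 with Schwann cells and -0.738 with sensory neurons, and Erbb3 had 0.372, 0.392 and -0.718. Erbb2 and Erbb3 had r = 0.885 with each other. The points share their libraries, and the part of cell composition in the receptor values was not tested.

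Calls in the SNA comparisons were counted over the members other than Areg and set beside the share of all genes. For SH SNA against SH Sham, 1 of the 8 tested members passed the adjusted threshold (Nrg1), where 11.2% of all genes did, and 4 passed the unadjusted threshold (Nrg1, Tgfa, Egfr and Hbegf), where 25.2% of all genes did. For EE + SNA against SH Sham, 3 of 8 passed the adjusted threshold (Nrg1, Tgfa and Erbb2), where 12.5% of all genes did, and the same 3 the unadjusted one, which 27.2% of all genes passed. Both comparisons use the SH Sham samples.

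The effect of SNA within EE was taken from samples that share none with SH SNA and SH Sham. For EE + SNA against EE Sham, 1 of 8 members passed the adjusted threshold (Nrg1), beside 4.83% of all genes, and 3 passed the unadjusted threshold (Nrg1, Erbb2 and Tgfa), beside 20.6% of all genes. Nrg1 fell by 0.43 ± 0.07 on the log2 scale (adjusted P = 0.00577), a call that held in 14 of 15 alternatives. Erbb2 stood at 0.40 ± 0.11 (adjusted P = 0.055) and Tgfa at 0.30 ± 0.09 (adjusted P = 0.0788). All 8 members had the same sign in SH and in EE, as did 74.1% of all genes.

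**Figure D3:**
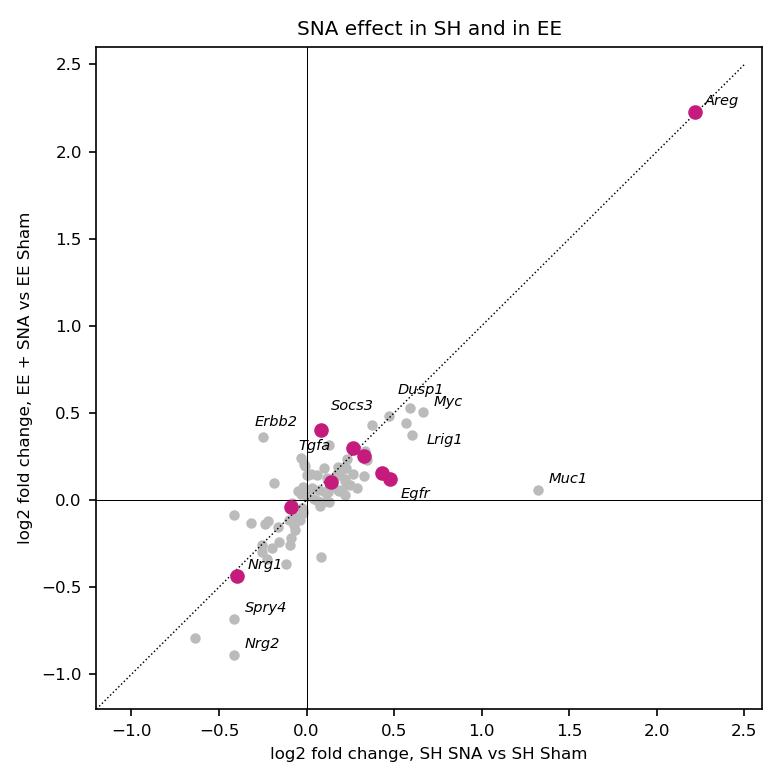
Log2 fold change after SNA in SH (x axis, SH SNA against SH Sham) and in EE (y axis, EE + SNA against EE Sham), with 1 point per gene: 9 members in colour and 80 other genes of the pathway in grey. No sample is shared between the axes, and the dotted line marks equal values. Areg lies near that line at 2.22 and 2.23, far from the other members, which lie between -0.43 and 0.48.

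Housing was compared within each surgery. For EE Sham against SH Sham, 0 of 8 members passed the adjusted threshold by edgeR or DESeq2 and 0 the unadjusted one, beside 0.00616% and 2.97% of all genes. These shares are from the fit without pairing, in which 1 and 483 genes passed. Blocking on the replicate number gave 29 and 847 genes. The log2 fold changes lay between -0.08 (Erbb2) and 0.18 (Egfr). For EE + SNA against SH SNA, 0 of 8 members passed either threshold by edgeR, and DESeq2 also gave 0 at the adjusted one, beside 0% and 4.1% of all genes.

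The closest to a difference between EE + SNA and SH SNA were Erbb2 and Tgfa. Erbb2 was higher in EE + SNA by 0.25 on the log2 scale, with a 95% interval from -0.03 to 0.52 (adjusted P = 0.989). Tgfa was higher by 0.15, from -0.02 to 0.31 (adjusted P = 0.989). For Nrg1 the difference was -0.07, from -0.23 to 0.09. The interaction of housing and surgery asks whether SNA acts differently after EE, and 0 of 8 members passed either threshold by edgeR or, after adjustment, by DESeq2, beside 0% and 2.61% of all genes. The largest interaction values were -0.35 ± 0.25 for Egfr and 0.33 ± 0.17 for Erbb2 (adjusted P = 1 for each), and Areg had 0.03 ± 0.46, described without a test, and -0.45 without EE + SNA replicate 3.

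**Figure D4:**
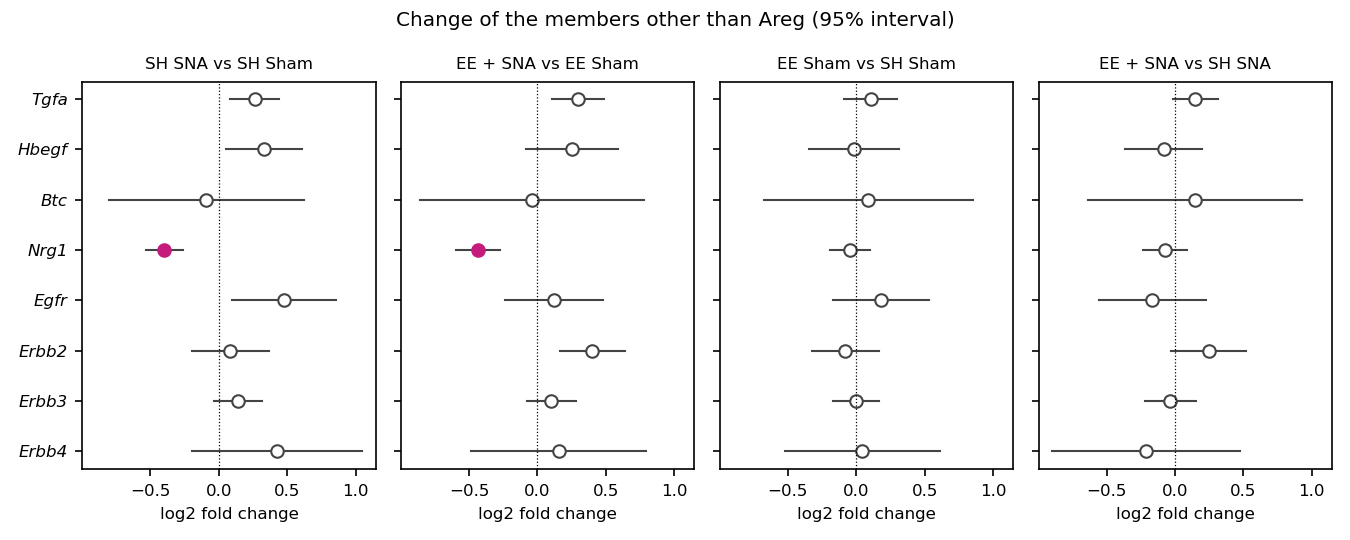
Log2 fold change (x axis) of the 8 tested members other than Areg (y axis) in 4 comparisons, as points with 95% intervals; filled points passed an adjusted P of 0.05. Nrg1 is the filled member in the 2 comparisons of SNA with sham, and all intervals of the 2 housing comparisons include 0.

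The rest of the pathway was read from lists of 82 genes, of which 80 were tested and 2 (Epgn and Grb7) had too few counts. In SH SNA against SH Sham, 14 of the 80 (17.5%, beside 11.2% of all genes) passed the adjusted threshold, 11 higher and 3 lower, with a median log2 fold change of 0.06 beside 0.0047 over all genes. In EE + SNA against SH Sham, 15 passed (18.8%, beside 12.5%), 9 higher and 6 lower, with a median of 0.06. In EE + SNA against EE Sham 5 passed (6.25%, beside 4.83%), 3 higher and 2 lower. Between EE + SNA and SH SNA, and between EE Sham and SH Sham, 0 passed the adjusted threshold by edgeR's test. At the unadjusted threshold 2 passed in each (2.5%), beside 4.1% and 2.97% of all genes.

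Among the other ligands, Nrg2, a neuregulin related to Nrg1, had 5.98, 5.95 and 5.75 CPM in SH Sham and 3.47, 3.83 and 2.34 CPM in EE + SNA. It fell by 0.85 ± 0.18 on the log2 scale after EE + SNA (adjusted P = 0.0104), while its SH SNA value was -0.41 ± 0.17 (adjusted P = 0.159), and the interaction did not pass (adjusted P = 1). Nrg3, Nrg4 and Egf passed the adjusted threshold in none of these comparisons. Epgn, the neighbour of Ereg, had 1, 1 and 0 reads in SH Sham, 5, 2 and 3 in SH SNA, 2, 3 and 3 in EE Sham and 3, 5 and 6 in EE + SNA, too few to compare. Of the 12 genes of ligand shedding, 0 passed the adjusted threshold by edgeR in either comparison with SH Sham, with 5 at the unadjusted threshold after SH SNA (41.7%, beside 25.2% of all genes) and 3 after EE + SNA (25%, beside 27.2%). Adam10, a sheddase, had 0.19 ± 0.07 after SH SNA (adjusted P = 0.123) and Adam17, the main sheddase of AREG and TGFA, had 0.10 ± 0.09 (adjusted P = 0.531).

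Genes that inhibit the receptors or take part in their turnover moved in both directions. Of 18 genes, 4 passed after SH SNA (22.2%, 3 higher and 1 lower) and 5 after EE + SNA (27.8%, 2 higher and 3 lower), each against SH Sham, beside 11.2% and 12.5% of all genes. Lrig1, which promotes ERBB receptor degradation, rose from 23.1, 23.5 and 23.9 CPM in SH Sham to 34.9, 31.7 and 40.4 CPM in SH SNA (0.60 ± 0.09, adjusted P = 0.00128), and to 32.4, 32.4 and 28.9 CPM in EE + SNA (0.41 ± 0.08, adjusted P = 0.00453). Socs3, a cytokine-induced inhibitor of signalling, rose by 0.47 ± 0.11 after SH SNA (adjusted P = 0.0161) and by 0.46 ± 0.09 after EE + SNA (adjusted P = 0.00528). Ptpn1, a phosphatase that acts on EGFR, rose after SH SNA by 0.33 ± 0.07 (adjusted P = 0.00802).

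Spred2 and Spry4 inhibit the RAS and ERK pathway. Spred2 fell by 0.26 ± 0.06 after SH SNA (adjusted P = 0.0102) and by 0.29 ± 0.07 after EE + SNA (adjusted P = 0.0222). Spry4 was at 21.1, 19.5 and 27.8 CPM in SH Sham, 26.3, 23.2 and 21.6 CPM in EE Sham, 15.4, 16.6 and 19.4 CPM in SH SNA, and 16.2, 15.9 and 12.2 CPM in EE + SNA. Every SNA sample lay below every sham sample. Spry4 fell by 0.62 ± 0.14 after EE + SNA against SH Sham (adjusted P = 0.0124) and by 0.68 ± 0.12 against EE Sham (adjusted P = 0.00728), and its SH SNA value was -0.41 ± 0.13 (adjusted P = 0.0704).

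Of 12 genes that ERK induces early, 2 passed after SH SNA (16.7%), both higher, and 3 after EE + SNA (25%), 2 higher and 1 lower. Of all genes, 11.2% and 12.5% passed in these comparisons with SH Sham. Dusp1, a phosphatase of MAP kinases, rose from 25.9, 28.4 and 23.5 CPM in SH Sham to 39.0, 38.7 and 39.2 CPM in SH SNA (0.59 ± 0.08, adjusted P = 0.00075) and to 44.2, 38.1 and 46.2 CPM in EE + SNA (0.71 ± 0.09, adjusted P = 0.000395). Myc, a transcription factor of growth, rose by 0.66 ± 0.09 (adjusted P = 0.000679) and 0.70 ± 0.10 (adjusted P = 0.00092). Dusp5, a phosphatase of ERK, fell by 0.32 ± 0.09 after EE + SNA (adjusted P = 0.0399).

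Of the 34 adaptors and kinases tested, 8 passed after SH SNA (23.5% beside 11.2% of all genes, 6 higher and 2 lower) and 6 after EE + SNA (17.6% beside 12.5%, 5 higher and 1 lower). Pik3cb, a catalytic subunit of PI3K, rose by 0.33 ± 0.07 and 0.30 ± 0.07 on the log2 scale (adjusted P = 0.00807 and 0.0114). Sos1, which loads RAS with GTP, fell by 0.23 ± 0.06 and 0.35 ± 0.07 (adjusted P = 0.0339 and 0.00568). Among the smaller changes named by the rule, Mapk7 (0.29), Pik3r3 (-0.25) and Gab2 (0.25) passed after SH SNA and Jak2 (0.25) after EE + SNA, all against SH Sham. Muc1, a mucin that binds EGFR, had 3 to 7 reads in SH Sham and 9 to 20 in EE + SNA, and its log2 fold change of 1.43 ± 0.41 (adjusted P = 0.0369) rests on those counts. Without axotomy, EE Sham had 9, 6 and 14 reads of Muc1 and stood 1.36 ± 0.51 above SH Sham on the log2 scale. EE + SNA stood 0.06 ± 0.39 above EE Sham. Between the comparisons that share no sample, SH SNA against SH Sham and EE + SNA against EE Sham, 3 pathway genes passed in both (Dusp1, Myc and Socs3), which is 21.4% of the SH calls and 60% of the EE calls, where all genes had 37.4% and 86.8%.

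The genes whose pattern was most like that of Areg over the 12 samples, by Pearson r of log2 CPM among 15343 genes, were Kctd11 (r = 0.976), Procr (0.973), Rab35 (0.970), Gm16277 (0.968) and Zfp259 (0.968). Procr, the endothelial protein C receptor, was at 6.98 to 7.96 CPM in SH Sham, 7.85 to 9.79 in EE Sham, 29.4 to 29.8 in SH SNA and 25.8 to 35.3 in EE + SNA. Relative to the group means these r were 0.604 to 0.900, so part of the likeness was the step between sham and SNA. For Erbb3 they were Zfp646 (r = 0.910), Tuft1 (0.856), Sec11a (0.853), Rnf213 (0.853) and Pdlim4 (0.853). Among the members, Areg had r = -0.956 with Nrg1 and 0.848 with Tgfa, and -0.431 and -0.155 relative to the group means.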

How the data were processed

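Reads from 12 samples were aligned by the authors to mm10 with TopHat2 2.0.12 and Bowtie2 2.2.3 and counted per gene name with HTSeq, per the submitters' processing notes. The deposited count table holds whole read counts, not normalized, and the deposited FPKM table holds values that the authors divided by gene length and library total. HTSeq left 56.3% to 56.8% of its totals off genes, and those lines were not used. The tested genes hold at least 99.89% of the reads on genes.

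Tests were run with edgeR 4.0.16 under R 4.3.3. TMM gave the scaling, and genes with low counts were dropped by filterByExpr (10 counts, a total of 15). A quasi-likelihood model (glmQLFit, glmQLFTest, two-sided) was made for each pair of groups from its own 6 samples, with Benjamini-Hochberg adjustment over 16238 genes. The interaction was fitted on all 12 samples. Calls were made at 0.05, adjusted and, as in the study, unadjusted. Scripts were tested on simulated data.

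The members, gene lists, markers and the rule for the other named genes were chosen with earlier results of these data known. The rule named, in each pathway list, up to 4 genes past the adjusted threshold with the largest change against SH Sham in SH SNA and in EE + SNA, and the 5 genes most like Areg and Erbb3 with a mean of at least 1 CPM. Adam10, Adam17, Epgn, Nrg3, Nrg4 and Egf were named outside it, after their values were seen. The other marker lists (satellite glia, mast cells, lymphocytes, endothelium, sympathetic neurons) served as checks of the tissue, apart from the r of Areg with some of them. 1 Schwann cell marker of the fixed list is not reported here, and the sums are of the other 7.

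Same-numbered samples of EE Sham and SH Sham deviated together from their group means (r = 0.128, 0.134 and 0.336), so the numbers were treated as a possible pairing. Differently numbered samples of these groups had r from -0.33 to 0.2, which overlaps those values, so the pairing is uncertain. This rests on the correlations alone, and the main fit of these groups did not use the pairing. In each other comparison at least 1 pair had r below 0.1. Between EE + SNA and SH SNA the same-numbered r were 0.0491 to 0.121, and the others reached at most 0.0389. The alternatives were the likelihood ratio test, DESeq2 1.42.0, library size scaling, no filter, at least 10 counts in every sample, 1 fit of all samples, the replicate block, limma 3.58.1 on log2 of the FPKM plus 1 or 0.1, and each sample left out. Genes were placed on GRCm38 with GENCODE, and promoter windows were from RefSeq. Figures used Matplotlib 3.10.9.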

Additional observations from a re-analysis of the deposited data

How the results depend on the processing

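Counts of members other than Areg changed by over 1.5 times in 16 of the recomputed counts and by less or not at all in 174, and no result changed sign past its threshold. For SH SNA against SH Sham, the adjusted count of 1 became 2 with no filter (Egfr added), with at least 10 counts in every sample and with all 12 samples in 1 fit (Tgfa added), and was 1 to 2 with a sample left out (2 without SH SNA replicate 2). The unadjusted count of 4 was 2 to 5 with a sample left out (2 without SH SNA replicate 1). For EE + SNA against SH SNA, the unadjusted count of 0 became 1 with no filter (Erbb2), and was 0 to 1 with a sample left out (1 without SH SNA replicate 3). For EE + SNA against EE Sham, the adjusted count of 1 became 3 with the likelihood ratio test and with all 12 samples in 1 fit, 2 with no filter and with at least 10 counts in every sample, and 0 with limma on log2(FPKM + 0.1), and was 1 to 2 with a sample left out (2 without EE Sham replicate 2). The unadjusted interaction count of 0 was 0 to 1 with a sample left out (1 without SH Sham replicate 3, SH SNA replicate 2 or SH SNA replicate 3). The causes were not tested.

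With the replicate number as a block, the adjusted count for EE + SNA against SH Sham was 2 in place of 3, as Erbb2 had an adjusted P of 0.0685, and no other count of members or call of a member changed. On log2(FPKM + 1), which understates low genes, the log2 fold change of Areg was 1.56 after SH SNA and 1.74 after EE + SNA against SH Sham, and 1.61 against EE Sham. Depth limits what can be said of Btc, Erbb4, Ereg, Epgn and Muc1, and with 3 samples per group a P that misses the threshold does not show equal levels.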
